A study of Mus musculus with 32 samples.

Results

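A gene can end its messenger RNA at more than 1 place, and 2466 of the 44081 genes in the table of single 3′ ends had at least 5 such ends. These genes, called many-end genes here, were chosen by that number alone, without use of their reads. They held 15420 of the 74532 ends in the table. Of them, 1097 had exactly 5 ends and 130 had at least 10. The ends were counted in the dendrites and in the soma of 16 single hippocampal neurons, taken from C57BL/6 mice at embryonic day 18 and grown for 15 days in culture, which gave 32 libraries paired by neuron. No genotype or treatment was varied. The RNA was amplified by the aRNA method, which copies poly-adenylated RNA by repeated in vitro transcription, in 3 rounds for neurons 1 to 4 and in 2 rounds for the other 12. Both compartments of a neuron had the same number of rounds. An end is the last 500 nt before a 3′ terminus, and termini less than 500 nt apart share 1 end. Ends carry numbers within a gene, where end 1 lies most 3′ and higher numbers lie further upstream.

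The 3′ end of a messenger RNA forms where the nascent transcript is cut and a poly(A) tail is added, usually shortly after a hexamer such as AATAAA. Use of different sites within 1 last exon changes the length of the 3′UTR, and use of sites in other last exons or in introns also changes what lies upstream. In neurons, 3′UTRs carry many of the binding sites through which RNA-binding proteins and microRNAs act on transport, stability and local translation.

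The bases before the annotated ends were set beside the reads on these ends. The table gives no coordinates, so ends were taken from the GENCODE annotation of GRCm38, the same assembly as mm10, for the 815 many-end genes where it lists as many ends as the table. The last 30 bases of each transcript are printed 5′ to 3′, with each complete AATAAA or ATTAAA in capitals. Usp22, which encodes a deubiquitinase of the SAGA complex, is shown because nearly all of its reads lay on end 1, and its other ends are annotated as retained introns or as targets of nonsense-mediated decay.
Usp22 end 1, chr11:61151785-61151814, minus strand, protein coding: atcatAATAAAgctgcattttattctgaaa
Usp22 end 2, chr11:61154019-61154048, minus strand, retained intron: ctaaaattgtaagatagccccaggcccagg
Usp22 end 3, chr11:61155710-61155739, minus strand, retained intron: ggtgagctggcattgtggtcatgcaggtct
Usp22 end 4, chr11:61161395-61161424, minus strand, nonsense-mediated decay: agctgctgcacctggtgtggacgcacgccc
Usp22 end 5, chr11:61162772-61162801, minus strand, retained intron: gatggctacacagctgcctctcccctcttt

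Cdc37l1, which encodes a co-chaperone of Hsp90, is shown because its reads were spread over 6 ends, all of them on protein-coding transcripts.
Cdc37l1 end 1, chr19:29026652-29026681, plus strand: aaataataatacatgctttttttctgtgtt
Cdc37l1 end 2, chr19:29020208-29020237, plus strand: taaAATAAAgtaaAATAAAattgaatccaa
Cdc37l1 end 3, chr19:29016563-29016592, plus strand: attcatcacATTAAAagcAATAAAtccgca
Cdc37l1 end 4, chr19:29015107-29015136, plus strand: taaaaacaaatgacattaggtagtaaaagt
Cdc37l1 end 5, chr19:29012157-29012186, plus strand: cctcaaaacataagtgttggacatggcaga
Cdc37l1 end 6, chr19:29008638-29008667, plus strand: ccctgtctcacaaaacaaaacaaaaaaagc

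Zfp536, a zinc finger repressor of neuronal differentiation, and Trp53bp1, a protein of the DNA damage response, are shown because end 3 and not the most 3′ end led in most libraries.
Zfp536 end 1, chr7:37472135-37472164, minus strand, protein coding: tattgctAATAAAaaagagctgtgaaacat
Zfp536 end 2, chr7:37479104-37479133, minus strand, protein coding: aactaaatctttaaaaagaaatatgaaaag
Zfp536 end 3, chr7:37569499-37569528, minus strand, protein coding: tgagaagccattcaagtgcccctactgcga
Zfp536 end 4, chr7:37710068-37710097, minus strand, other non-coding: tgtatcAATAAAgttttattggcacaaatt
Trp53bp1 end 1, chr2:121193281-121193310, minus strand, other non-coding: aagtactctaccaactgacctacattccca
Trp53bp1 end 2, chr2:121194838-121194867, minus strand, protein coding: gtaagcactcAATAAAgacttcaattatga
Trp53bp1 end 3, chr2:121198251-121198280, minus strand, nonsense-mediated decay: ataaatgttgaatctctttggttgtagtaa

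Sec14l1, a protein of the SEC14-like lipid-binding family, and Rasa1, a GTPase-activating protein of Ras, are shown for the compartment comparison of their 2 leading ends.
Sec14l1 end 1, chr11:117159239-117159268, plus strand: ttacaatAATAAAtgtgaactgtttaagaa
Sec14l1 end 2, chr11:117157530-117157559, plus strand: ccgccatcATTAAAcattgctttctctttc
Rasa1 end 1, chr13:85214780-85214809, minus strand: aagttttctcAATAAAaatatttttctgaa
Rasa1 end 2, chr13:85215495-85215524, minus strand: ttgaaagacaatatataaaatcgatgaatc

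AATAAA was searched on the transcript strand in the last 40 bases of each annotated transcript. Among the many-end genes that could be placed, 61.0% of the ends numbered 1 held it, against 21.1% of the ends numbered 2, 12.8% of those numbered 3 and 12.4% of those numbered 4 or higher. It was held by 28.7% of the 16456 annotated ends of the 5131 genes with at least 2 ends that could be placed in the same way. ATTAAA was in 15.0% of the ends numbered 1 and in 9.49% of all annotated ends, and a window with both counts in each share. The end with most reads of a gene held AATAAA in 53.1% of cases and the other ends in 15.7%. Ends with at least 10 reads in some library held it in 29.4% of cases and the rest in 11.3%. In Trp53bp1, an AATAAA before end 3 begins 31 bases from the end, just outside the printed bases.

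Reads on all ends numbered 545526 to 5803949 in dendrites (median 1319115) and 812776 to 17796226 in somas (median 5033109), so a dendrite library gives a coarser view of a gene than a soma library. The share of reads on many-end genes was 14.4% ± 2.10 (SD, n = 16) in dendrite libraries. In soma libraries it was 17.8% ± 1.14 (SD, n = 16). Between 201 and 1543 of them had at least 10 reads in a dendrite library, and between 968 and 1953 in a soma library. The summed CPM (reads scaled to the library total) of the neuron markers Map2, Snap25, Grin1, Neurod6, Camk2a and Slc17a7 ranged from 1463 to 6654 in dendrites and from 2015 to 6899 in somas. The interneuron markers Gad1, Gad2 and Slc32a1 had a median sum of 3401 in dendrites and of 9354 in somas. The median sums of the non-neuronal lists were higher in dendrites. They were 34.6 against 13.3 in somas for astrocytes, and 4.37 against 0.282 for microglia. For oligodendrocytes they were 7.12 against 1.61, and for endothelial cells 1.53 against 0.215. Single dendrite libraries reached 513 for astrocytes and 379 for microglia, against 142 and 17.8 in somas. For oligodendrocytes and endothelial cells the highest library was a soma, at 137 and 129. Cldn5 was at 0 in every library. The part of these cell types in the results below was not tested.

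Many-end genes were long and mostly protein coding. Of the 2466, 2332 matched a symbol of the annotation, and 97.2% of these were protein coding. Their median length was 53.1 kb with 9 annotated transcripts, against 24.2 kb and 4 transcripts for genes with 2 to 4 ends. In the 815 genes that could be placed, 39.0% of the ends belonged to a protein-coding transcript, 28.1% to a retained intron, 5.96% to a target of nonsense-mediated decay and 26.9% to another non-coding transcript. The reads were less evenly spread, with 81.7% of them on the protein-coding ends and 6.59% on the retained introns.

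Many ends of these genes drew few or no reads. Of the 15420 ends, 3276 (21.2%) had no read in any library and 8736 (56.7%) had at least 10 reads in at least 1 library. In genes with 2 to 4 ends these shares were 22.5% and 58.0%. An end with at least 10 reads in a library was counted as used there. Counted over all 32 libraries, 112 many-end genes had no used end and 207 had 1, while 2147 had at least 2 and 684 had at least 5. The median was 3 used ends and the highest number was 13, in Celf2, which encodes an RNA-binding regulator of splicing. Every annotated end was used in 205 genes.

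Within a library, a many-end gene used few ends on average, and fewer in dendrites than in the soma. Genes with at least 10 reads in both compartments of a neuron were compared, between 170 and 1007 genes per neuron. The mean number of used ends per gene ranged from 1.16 to 1.51 in dendrites (median 1.27) and from 1.28 to 2.38 in somas (median 1.76). It averaged 1.303 ± 0.104 in dendrites against 1.79 ± 0.310 in somas (both SD, n = 16), a paired difference of -0.485 ± 0.328 (SD, n = 16). The soma was higher in 15 of 16 neurons, and neuron 5 was the exception, with means of 1.51 for dendrites and 1.46 for the soma. In neurons grouped by rounds, it was -0.522 in the 12 neurons of 2 rounds, 11 of them with a higher soma, and -0.377 in the 4 neurons of 3 rounds, all with a higher soma.

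Because dendrite libraries were shallower, the number of different ends expected in a draw of 10 reads of each gene was also computed. It averaged 1.43 ± 0.209 in dendrites and 1.60 ± 0.163 in somas (SD, n = 16 each), a paired difference of -0.174 ± 0.206 (SD, n = 16), with the soma higher in 14 neurons. Without neuron 5 this difference was -0.210 ± 0.150 (SD, n = 15). The expected ends were also grouped by the reads of a gene in its library. At 10 to 29 reads they were 1.42 ± 0.195 in dendrites and 1.37 ± 0.223 in somas (SD, n = 16 each). From 30 reads up the somas were higher in each class. At 30 to 99 reads the values were 1.34 ± 0.230 and 1.39 ± 0.199 (SD, n = 16 each). At 1000 reads or more they were 1.41 ± 0.150 (SD, n = 9) and 1.65 ± 0.112 (SD, n = 15). Genes with 2 to 4 ends had 1.22 ± 0.0803 (SD, n = 16) expected ends in dendrites and 1.31 ± 0.0591 (SD, n = 16) in somas. Over all genes with at least 2 ends, which include the many-end genes, the used ends numbered 1.21 ± 0.0640 in dendrites against 1.51 ± 0.185 in somas (both SD, n = 16), and the difference was larger than the spread between neurons (exact sign-flip permutation test over 16 neurons, two-sided, p = 6.1e-05). The expected ends in 10 reads of all these genes also differed (p = 0.00299 by the same exact permutation test). Among genes with at least 10 ends, the used ends numbered 1.56 ± 0.247 in dendrites and 2.36 ± 0.591 in somas (SD, n = 16 each).

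**Figure D1:**
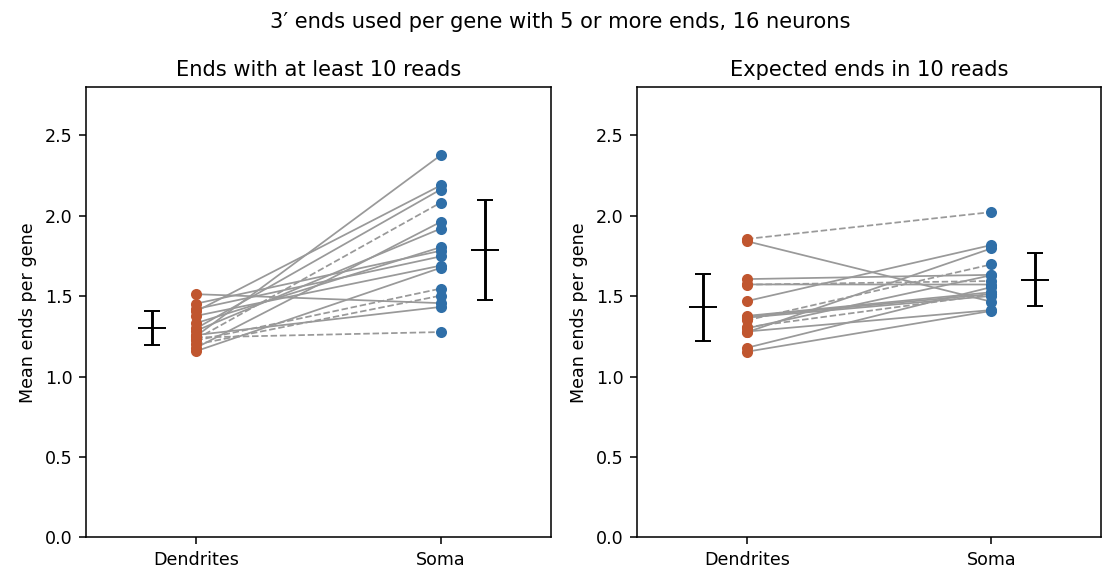
Mean number of 3′ ends per many-end gene in dendrites and soma, with 1 line per neuron, for ends with at least 10 reads and for the ends expected in 10 reads of the gene. The soma was higher in 15 of 16 neurons by the first measure and in 14 of 16 by the second.

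In most genes 1 end took nearly all reads of a library. Among genes with at least 10 reads in the library, 74.9% ± 6.31 (SD, n = 16) used 1 end in dendrites and 57.8% ± 10.5 (SD, n = 16) in somas. At least 3 ends were used by 4.62% ± 2.12 (SD, n = 16) of the genes in dendrites and by 14.6% ± 7.42 (SD, n = 16) in somas. The dominant end, the one with most reads, held 91.1% ± 4.15 of the reads of a gene in dendrites against 87.9% ± 3.48 in somas (both SD, n = 16). In somas this share fell with depth, from 92.9% ± 4.70 (SD, n = 16) for genes of 10 to 29 reads to 85.1% ± 2.26 (SD, n = 15) for genes of at least 1000 reads. In dendrites it was 92.1% ± 4.02 (SD, n = 16) and 89.8% ± 3.52 (SD, n = 9) in the same classes.

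The most 3′ end led, and more so in the soma. In genes with at least 10 reads in both compartments of a neuron, end 1 held 37.1% to 54.1% of the reads of a gene in dendrites (median 46.7%) and 45.5% to 53.5% in somas (median 51.1%). The mean was 47.2% ± 4.55 in dendrites and 51.1% ± 2.08 in somas (SD, n = 16 each), and the dendrites were higher in 1 of 16 neurons. Ends 2 and 3 held 22.7% ± 1.57 and 11.2% ± 1.40 (SD, n = 16) in dendrites and 23.9% ± 1.06 and 11.3% ± 1.56 (SD, n = 16) in somas. Ends numbered 4 or higher, the most upstream ones, held 11.5% to 29.8% in dendrites (median 19.9%) and 10.1% to 21.5% in somas (median 12.6%). Their mean was 19.0% ± 4.60 in dendrites against 13.7% ± 3.15 in somas (both SD, n = 16), a paired difference of 5.29 ± 3.95 percentage points (SD, n = 16). The ranges of the compartments overlap, but within each of the 16 neurons the dendrites had the larger share. The difference was 5.89 ± 4.00 percentage points (SD, n = 12) in neurons of 2 rounds and 3.50 ± 3.71 (SD, n = 4) in neurons of 3 rounds. These shares describe the many-end genes, and no test was made of them.

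**Figure D2:**
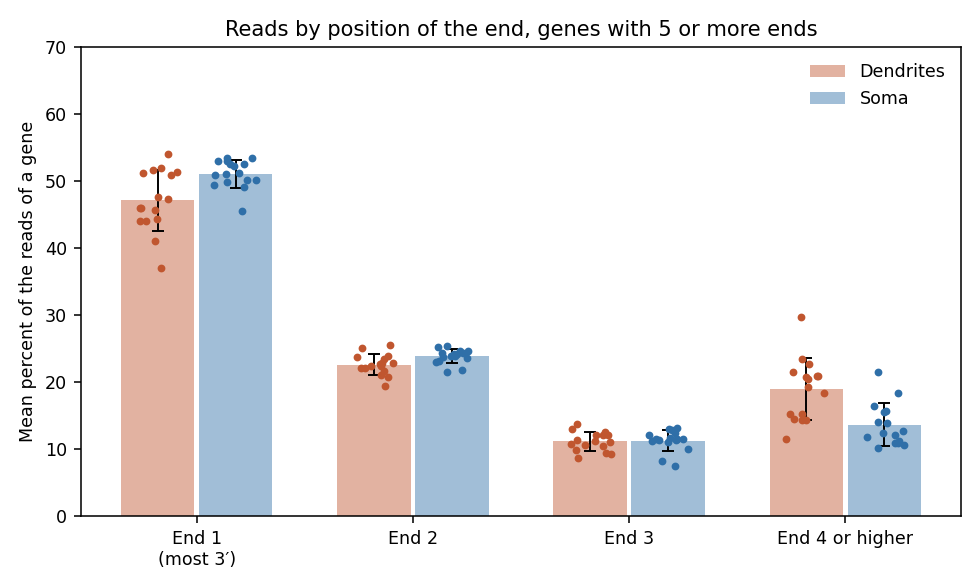
Mean percent of the reads of a many-end gene on its end 1, 2, 3 and 4 or higher, in dendrites and somas. Bars are means over 16 neurons, error bars are SD and points are neurons. Ends numbered 4 or higher held 19.0% of the reads in dendrites and 13.7% in somas.

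The reads were also compared by the annotated kind of transcript. The shares here are means over genes, so they differ from the shares of all reads given above. In the genes that could be placed, protein-coding ends held on average 76.9% ± 5.12 (SD, n = 16) of the reads of a gene in dendrites. In somas they held 81.8% ± 3.17 (SD, n = 16), and the soma was higher in 15 of 16 neurons. Ends of retained introns held 11.5% ± 3.34 in dendrites and 8.13% ± 1.96 in somas (SD, n = 16 each), with the dendrites higher in 15 neurons. Ends of other non-coding transcripts held 8.44% ± 2.20 (SD, n = 16) and 6.64% ± 1.46 (SD, n = 16), with the dendrites higher in 14. The retained-intron difference was 3.86 ± 2.93 percentage points (SD, n = 12) with 2 rounds and 1.78 ± 1.53 (SD, n = 4) with 3 rounds.

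In most of the genes with most ends, 1 end led in the majority of somas. The name with most features, TRNA_Cys with 21, stands for a family of tRNA copies at several loci and is named only to say so. Huwe1, a HECT ubiquitin ligase on chromosome X, had 19 ends, of which 10 were used, and its end 1 led in 11 of 14 somas but in 2 of 5 dendrites. Ank3 and Ank2 encode ankyrins, which tie membrane proteins to the spectrin skeleton. In Ank3 (18 ends) end 2 led in 12 of 14 dendrites and 13 of 16 somas, with a median share of 68.0% in dendrites and 70.4% in somas. In Ank2 (16 ends) end 1 led in 14 of 16 dendrites and 15 of 16 somas, with median shares of 72.2% and 74.5%.

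Itsn1, an endocytic scaffold, and Nav2, a neuron navigator, also had 16 ends each. End 1 of Itsn1 led in 14 of 15 somas and in 6 of 12 dendrites. End 1 of Nav2 led in 11 of 15 somas and in 4 of 11 dendrites, where ends 10 and 12 led in 3 libraries each. Trp53bp1 used 8 of its 16 ends, and end 3 led in 8 of 13 dendrites and 11 of 16 somas. In dendrites, end 3 of Trp53bp1 held between 0% and 99.3% of the reads (median 66.4%), and in somas between 18.7% and 96.9% (median 63.1%). Nearly all remaining reads lay on end 2. End 1 of that gene, annotated on a non-coding transcript, had 3 reads in all. Of the 15 ends of Arhgef2, a microtubule-bound activator of RhoA, end 3 led in 5 of 7 dendrites and 10 of 13 somas. Of the 15 ends of Zfp280d, a zinc finger protein, end 1 led in 3 of 7 dendrites and 12 of 14 somas.

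Steadiness was described for the 626 many-end genes with at least 10 reads in at least 24 of the 32 libraries. In 149 of them the same end was dominant in every library, and in 322 the commonest dominant end led in at least 90% of the libraries. In 38 genes the commonest dominant end led in fewer than 50%. The commonest dominant end was end 1 in 350 genes (55.9%), end 2 in 149 and a more upstream end in 127. The median gene had 1.49 expected ends in 10 reads, and the range ran from 1.00 to 3.25.

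At the steady end of this range stood genes with nearly all reads on 1 of many ends. The 8 genes with the fewest expected ends were Aatk and Prrc2b, Pqlc1, Wdr13, Hdac11, Usp22, Dhcr7 and Rnf44, among which Aatk is a neuronal kinase, Hdac11 a histone deacetylase, Rnf44 a RING finger protein and Dhcr7 a late enzyme of cholesterol synthesis. Each had end 1 as its dominant end in every library where it had 10 reads. Over all libraries, Aatk, Prrc2b and Pqlc1 used 1 end, Wdr13, Hdac11 and Rnf44 used 2, Dhcr7 used 3 and Usp22 used 4. In Usp22, end 1 held 100% of the reads at the median of both compartments, and its lowest share was 97.8%, in a soma. The 4 other ends of Usp22, whose bases are printed above without an AATAAA, had between 1 and 67 reads over all libraries, against 37151 on end 1.

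Among the genes with 1 dominant end in every library, 5 with the most reads were Gnas, Zwint, Ttc3, Fgf13 and Atp6v1b2. Gnas, the stimulatory G protein alpha subunit, had 94.6% to 99.9% of its reads on end 1 in dendrites and 94.0% to 99.6% in somas. Fgf13, an intracellular growth factor homolog that binds sodium channels, kept end 2 as its dominant end in all 15 dendrites and 16 somas, with a lowest share of 78.5%. Ttc3, a ubiquitin ligase, had 12 ends and kept the same leader while using others. Its end 1 had a median share of 68.3% in dendrites and 66.9% in somas, and its end 5 had 31.1% and 30.2%.

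At the mixed end stood genes that divided their reads. The 8 genes with most expected ends were Celf2, Rbm25, Meg3, Cdc37l1, Mtdh, Tcf4, Pcmt1 and Zfp536, with 2.68 to 3.25 expected ends in 10 reads. In Celf2 the reads lay on ends 2, 3 and 4, with median shares of 12.4%, 23.5% and 41.2% in dendrites and 26.3%, 22.9% and 34.1% in somas. End 4 led in 9 of 15 dendrites and 8 of 16 somas. Tcf4, a basic helix-loop-helix transcription factor, split its reads almost evenly over ends 1, 2 and 3, with median shares of 31.7%, 32.6% and 32.8% in dendrites and 36.7%, 34.9% and 28.7% in somas. In single dendrite libraries the share of its end 3 ranged from 0% to 87.9%, against 9.52% to 43.0% in somas. Meg3, an imprinted long non-coding RNA, had end 3 as its leader in 9 of 14 dendrites and 10 of 15 somas.

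In Zfp536 the leading end 3 held a median of 62.1% of the reads in dendrites and 54.5% in somas, and the libraries ran from 0% to 92.1% and from 4.71% to 92.0%. The printed bases before its end 3 hold no AATAAA, while those before its ends 1 and 4 do. In Cdc37l1 each of the 6 ends was dominant in at least 1 library. End 4 led in 6 of 14 dendrites and 5 of 16 somas, and end 3 led in 3 of 14 and 7 of 16. Dendrites and soma of the same neuron had the same dominant end of Cdc37l1 in 1 of 14 neurons.

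The genes with the least steady dominant end were Mkln1, Mau2, Rian, Syncrip and Cdc37l1. In Mkln1, which encodes the muskelin subunit of a ubiquitin ligase, end 4 led in 9 of 16 somas and in 0 of 12 dendrites. The share of its end 4 had a median of 0% and a highest value of 34.5% in dendrites, and a median of 49.1% and a highest value of 85.0% in somas. In Mau2, a loader of cohesin, end 1 led in 7 of 12 dendrites and 2 of 15 somas, and 0 of 11 neurons had the same dominant end in both compartments. Syncrip, an RNA-binding protein of transport granules, had end 2 as its leader in 8 of 12 dendrites and 2 of 16 somas, while end 1 led in 3 and 7. Rian, an imprinted non-coding RNA, had 9 different dominant ends, at a median of 15 reads per dendrite library and 65.5 per soma library. Mkln1 and Mau2 had medians of 32.5 and 20 reads in dendrites, so a dominant end there rests on few reads.

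**Figure D3:**
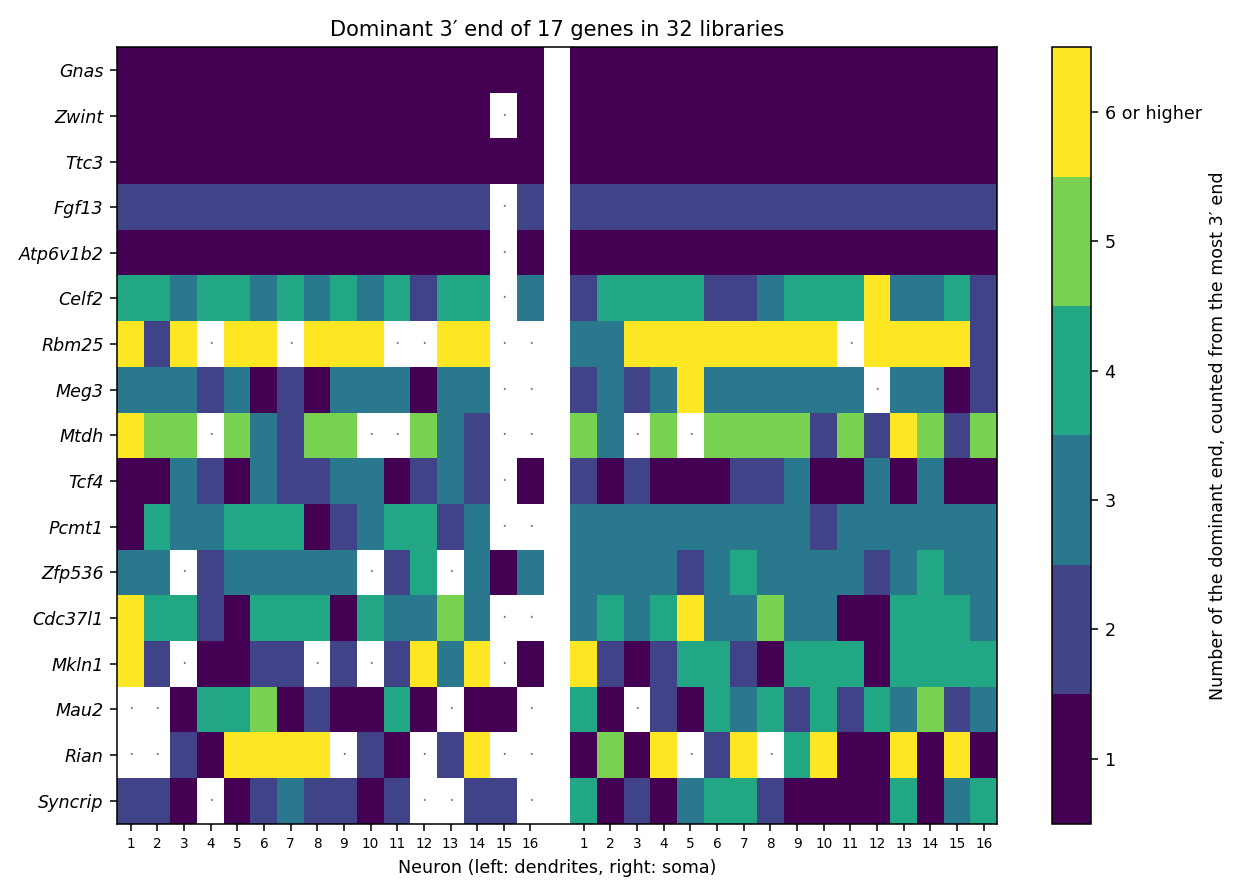
Number of the dominant 3′ end of 17 many-end genes in the dendrites (left) and somas (right) of 16 neurons, by colour, with ends 6 and higher in 1 colour and a dot where the gene had fewer than 10 reads or a tie. Gnas to Atp6v1b2 hold 1 colour in every library, and Mkln1 has end 4 in 9 somas and in 0 dendrites.

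Agreement was measured as the share of many-end genes whose dominant end was the same in 2 libraries, over genes with at least 10 reads in both and no tie. Between dendrites and soma of the same neuron it ranged from 55.1% (neuron 14) to 80.2% (neuron 9), with a mean of 70.02% ± 6.80 (SD, n = 16). Between dendrites and soma of different neurons it was 69.2% ± 5.66 (SD over 240 pairs). The dendrites of 2 neurons agreed in 66.5% ± 6.09 (SD over 120 pairs) of the genes and the somas of 2 neurons in 76.5% ± 4.05 (SD over 120 pairs). Pairs that share a library are not independent, so these SDs are descriptions of spread.

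A neuron's dendrites were about as close to its own soma as to the somas of other neurons. The own soma exceeded the mean of the other 15 by 0.828 ± 1.92 percentage points (SD, n = 16), was the higher in 11 of 16 neurons, and ranked as the closest soma in 2 (neurons 4 and 8). In neurons of 2 rounds the agreement within a neuron was 68.9% ± 7.16 (SD, n = 12) and in neurons of 3 rounds 73.3% ± 4.96 (SD, n = 4). Genes with 2 to 4 ends agreed in 85.7% ± 3.04 (SD, n = 16) within a neuron and in 85.1% ± 2.70 (SD over 240 pairs) between neurons. The nearest classes were closer, with 76.8% ± 5.56 within a neuron for exactly 5 ends and 78.7% ± 4.58 for exactly 4 (SD, n = 16 each). These comparisons are descriptions.

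Agreement rose with the reads behind it. When the shallower of both libraries of a neuron held 10 to 29 reads of a gene, the dominant end was the same in 58.8% ± 10.1 (SD, n = 16) of the genes. This share was 65.9% ± 8.46 (SD, n = 16) at 30 to 99 reads, 74.9% ± 7.34 (SD, n = 16) from 100 reads and 81.9% ± 8.69 (SD, n = 15) from 300 reads up to the next class. At 1000 reads or more, which 7 neurons reached with enough genes, it was 89.4% ± 4.46 (SD, n = 7).

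**Figure D4:**
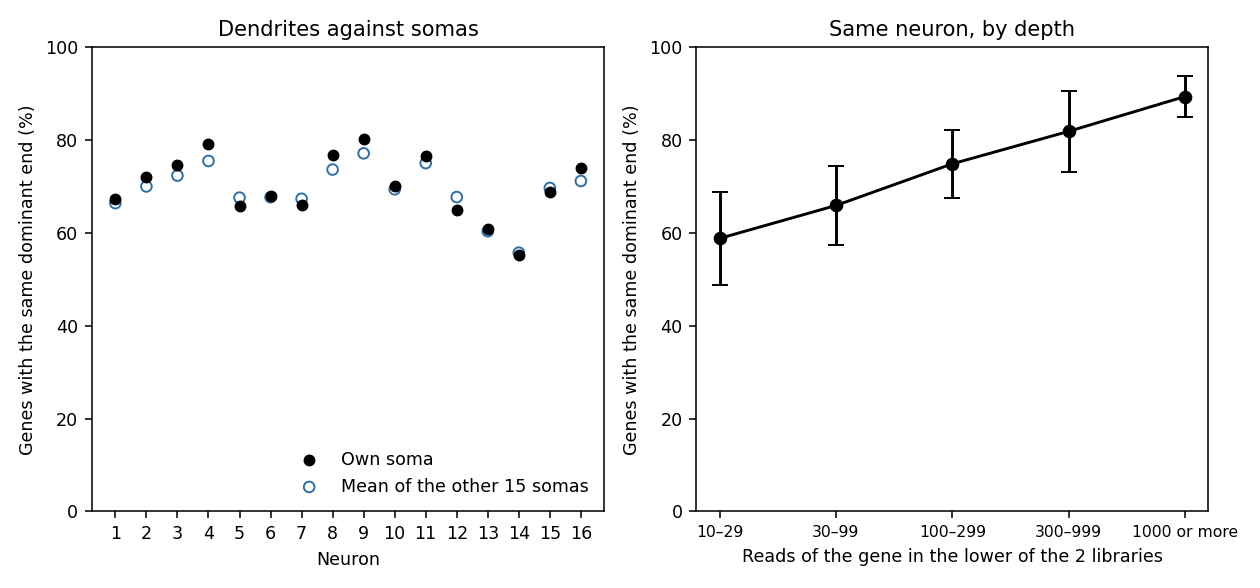
Percent of many-end genes with the same dominant end in the dendrites of a neuron and in its own soma (filled) or the other 15 somas on average (open), by neuron, and within a neuron by the reads of the gene in the shallower library (mean and SD over neurons). Own and other somas differ by 0.828 percentage points on average, and agreement rises from 58.8% at 10 to 29 reads to 89.4% at 1000 or more.

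Gene groups were described by medians over their well-covered members, and no difference between groups was tested. The median number of ends used over all libraries was 4 for ion channels and receptors, and 5 for each other group and for all well-covered many-end genes. The groups were named by symbol, and the values stand beside the median of 1.49 expected ends and 91.7% of libraries on the commonest dominant end over all 626 well-covered many-end genes. Of 36 many-end genes for RNA-binding proteins, 17 were well covered, with a median of 1.51 expected ends and of 93.5% of libraries on the commonest dominant end. They included Celf2 at 3.25, Stau2, a transport protein of neuronal RNA granules, at 1.94, Hnrnpk at 1.64 and Elavl2 at 1.06. In Stau2, end 1 led in 7 of 14 dendrites and 8 of 16 somas and end 3 in 5 and 8. In Elavl2, a neuronal binder of AU-rich elements, end 1 led in all 30 libraries.

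Of 47 genes for adhesion and guidance proteins, 16 were well covered, with a median of 1.80 expected ends and of 78.8% of libraries on the commonest dominant end. Nrxn3 and Nrxn2, presynaptic adhesion molecules, are examples. In Nrxn3, end 1 held a median of 55.3% of the reads in dendrites and 57.2% in somas, and end 2 held 40.7% and 34.7%. In Nrxn2, end 2 led in 12 of 15 dendrites and 16 of 16 somas. Epha5, an ephrin receptor, had end 5 as its leader in 6 of 13 dendrites and 11 of 16 somas.

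Of 47 genes for cytoskeleton, motor and scaffold proteins, 29 were well covered, with a median of 1.75 expected ends and of 92.0% of libraries on the commonest dominant end. Dlgap1, a scaffold of the postsynaptic density, divided its reads over ends 1 and 2, with median shares of 41.1% and 55.6% in dendrites and 42.1% and 56.3% in somas. Map4, a microtubule-associated protein, had end 5 as its leader in 13 of 16 dendrites and 13 of 16 somas, and the most 3′ end in 3 and 3. Myo5a, a motor of actin filaments, had end 1 as its leader in 12 of 16 dendrites and 14 of 16 somas. The 31 genes for ion channels and neurotransmitter receptors, 10 of them well covered, had medians of 1.42 expected ends and 88.8% of libraries on the commonest dominant end. In Gabbr1, a subunit of the GABA-B receptor, end 3 led in 14 of 16 dendrites and 12 of 16 somas and end 8 in the others. Kcnab2 and Gabrb2 had end 1 as their leader in every library counted.

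The 75 genes for kinases, phosphatases, G proteins and calmodulins, 31 of them well covered, had medians of 1.51 expected ends and 91.7% of libraries on that end. In Ppp3ca, the catalytic subunit of calcineurin, end 2 led in 14 of 16 dendrites and 15 of 16 somas. Gnao1 and Mapk9 had 1 dominant end in all 31 libraries counted. The 88 genes for chromatin and transcription regulators, 21 of them well covered, had a median of 1.78 expected ends and of 72.4% of libraries on the commonest dominant end. In Dnmt3a, a DNA methyltransferase, end 1 led in 7 of 14 dendrites and 9 of 16 somas and end 4 in 6 and 5.

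The level of each end was then compared between compartments over all ends of the table with at least 1 read in at least 16 libraries. This filter kept 10652 ends, 2199 of them from 1541 many-end genes, and left 925 many-end genes without a tested end. By edgeR's quasi-likelihood test with neuron as a block, at an adjusted p of at most 0.05, 4 ends of many-end genes were higher in dendrites (0.182%), against 0.723% of all ends tested. Lower in dendrites were 409 (18.6%), against 16.9% of all ends. The log2 fold change of dendrites over soma had a median of -2.61 over ends of many-end genes and of -2.14 over all ends, on the scale of TMM-normalized counts. These counts are relative to the library, so they give a share of reads and not an amount of RNA per compartment. The spike-in RNA that the authors added was not used here. When the dendrites were rescaled so that the median end did not change, 49 ends of many-end genes were higher and 33 lower in dendrites, against 6.5% and 1.3% of all ends. This rescaling was chosen after seeing the data. Among ends numbered 1, 2 and 3, 18.4%, 19.1% and 21.0% were lower, and among those numbered 4 or higher, 15.9%. The median log2 fold changes were -2.68, -2.67, -2.74 and -1.84 in the same order.

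The 4 higher ends were end 1 of Map2, end 4 of Nmd3, end 5 of Rprd2 and end 1 of Dock8. Map2, the microtubule-associated protein of dendrites, had a CPM of 133 to 6104 on end 1 in dendrites (median 2419) and 86.5 to 869 in somas (median 415). The ranges overlap, but the dendrite median lies above the highest soma. Its log2 fold change was 2.32 ± 0.55 (SE, adjusted p = 0.00878), and in the 4 neurons of 3 rounds alone it was 1.79 (adjusted p = 0.356). End 1 held most reads of Map2 in all 32 libraries, with a median of 96.8% in dendrites and 97.7% in somas. Nmd3, an adapter for nuclear export of the large ribosomal subunit, had 192 dendrite reads on end 4, of which 120 lay in 1 library. The log2 fold change of its end 4 was 3.19 ± 0.97 (SE, adjusted p = 0.026).

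Rprd2, a protein that binds the tail of RNA polymerase II, had 119 dendrite reads on end 5, and 108 of them lay in 1 library. End 1 of Dock8, an exchange factor for Cdc42, had 442 dendrite reads in 15 libraries and 192 soma reads in 13. The dendrite library with most reads was that of neuron 8 for Map2, neuron 12 for Nmd3, neuron 10 for Rprd2 and neuron 5 for Dock8. When neurons 8, 10 and 12 were left out in turn, Map2 and Nmd3 kept their calls. The adjusted p of Rprd2 end 5 was then 0.0654, 0.0944 and 0.0624, and that of Dock8 end 1 was 0.0579, 0.081 and 0.039. In these fits the log2 fold changes were 2.46, 2.17 and 2.58 for Rprd2, against 2.56 with all neurons. For Dock8 they were 3.28, 3.22 and 3.55, against 3.16. Without neuron 5 the adjusted p of Dock8 end 1 was 0.043. The count of all called ends of many-end genes, 413, was 193 without neuron 10 and 590 without neuron 5, and it was 37 without neuron as a block. Keeping only ends with at least 10 reads in at least 16 libraries left 64 calls, and DESeq2 gave 1473.

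The ends with the smallest p among those lower in dendrites had soma reads and few dendrite reads. End 1 of Cul5, a scaffold of ubiquitin ligases, had 5131 soma reads in 15 libraries and 16 dendrite reads in 3. End 3 of Smarcal1, an annealing helicase, had 2501 soma reads and 3 dendrite reads. End 2 of Wdr26, a subunit of the CTLH ubiquitin ligase, had 2693 soma reads and 6 dendrite reads. End 2 of Rbm39, a splicing coactivator, had 1408 soma reads and 23 dendrite reads, 22 of them in 1 library. End 3 of Prpf38b, a protein of the spliceosome, had 1574 soma reads and 5 dendrite reads. Their adjusted p ranged from 0.000782 to 0.00275. Their fitted log2 fold changes, from -8.62 to -6.86, depend on the prior count and on the depth of the dendrites. Against the 16.9% of all ends and 18.6% of many-end gene ends that were lower in dendrites, the listed groups had 18 of 63 tested ends (28.6%) for RNA-binding proteins and 11 of 41 (26.8%) for adhesion and guidance. The count was 5 of 24 (20.8%) for channels and receptors, 16 of 97 (16.5%) for kinases and related proteins and 12 of 88 (13.6%) for chromatin and transcription. For the cytoskeleton group, 4 of 63 (6.35%) were lower and 1, the end of Map2, was higher, with a median log2 fold change of -1.06.

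Whether the ends of 1 gene changed unequally between compartments was tested per gene with edgeR's diffSpliceDGE F test over the 1431 genes with at least 2 tested ends. Of 483 many-end genes tested, 6 passed at an adjusted p of at most 0.05 (1.24%), against 0.978% of all genes tested. They were Nmd3, Nxf1, Wdr26, Mau2, Prpf38b and Peg3. In Nmd3 (adjusted p = 0.00089), end 2 had a median share of 10.0% in the 7 dendrites with at least 10 reads and of 99.2% in 16 somas, while end 4 had 15.0% and 0.187%. In Nxf1, the receptor for export of messenger RNA (adjusted p = 0.0361), end 1 had a median share of 100% in dendrites and 64.4% in somas, and end 2 had 0% and 34.95%. The ranges overlap, since end 1 of Nxf1 ran from 3.64% to 100% in dendrites and from 15.8% to 99.8% in somas.

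In Wdr26 (adjusted p = 0.0361), end 2 had a highest share of 1.85% in dendrites, against a median of 13.2% and a highest of 85.5% in somas, and ends 1 and 3 took most of the rest. In Mau2 (adjusted p = 0.0361), end 1 had a median share of 86.6% in dendrites and 9.76% in somas. In Prpf38b (adjusted p = 0.0417), end 4 held at least 98.5% of the reads in all 6 dendrites with 10 reads, and a median of 42.4% in 16 somas. In Peg3, an imprinted zinc finger gene (adjusted p = 0.0468), end 2 had a highest share of 0.320% in dendrites, against a median of 1.55% in somas. Without neurons 8, 10 and 12 in turn, 1, 1 and 2 many-end genes passed, and Nmd3 passed in each of these fits. Without neuron 5, 7 passed, and Peg3 had an adjusted p of 0.0623. End 2 of Wdr26 did not pass the filter on low counts without neuron 10, so that fit holds no value for its difference.

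The share of the leading end among the 2 leading ends of a gene was compared within neurons by an exact two-sided signed-rank test at p under 0.1. Of 993 many-end genes with at least 5 usable neurons, 95 passed (9.57%), against 8.44% of all 3508 genes tested. The leading end was higher in dendrites in 61 (6.24% of all genes tested passed in that direction) and lower in 34 (2.19% of all). Read by position, the more 3′ of the 2 ends was higher in dendrites in 60 many-end genes (5.42% of all genes tested passed that way) and lower in 35 (3.02% of all). After Benjamini-Hochberg adjustment over the 3508 genes, 0 passed at 0.05, while 52 many-end genes had an unadjusted p under 0.05 in the same exact test (5.24%), against 4.53% of all. The genes below are therefore described as the smallest p in each direction, and none of them passes the adjustment.

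The leading end had a higher share in dendrites in Peg3, Acly, A830018L16Rik, Sec14l1 and Ncam1. The dendrite reads on both ends ranged from 13 to 6825 per neuron in Peg3 and from 61 to 2156 in Acly. They ranged from 10 to 1334 in A830018L16Rik, 13 to 920 in Sec14l1 and 16 to 1087 in Ncam1. At few reads a rare end can be missed, and the part of this in the differences was not tested. Peg3 end 1 held 99.9% ± 0.131 (SD) of the reads on both ends in dendrites and 97.8% ± 2.28 (SD) in somas (n = 14, exact p = 0.000488, adjusted p = 0.285), and exceeded the soma in 12 neurons. End 1 of Acly, which makes cytosolic acetyl-CoA, held 99.9% ± 0.170 (SD) in dendrites and 98.5% ± 1.71 (SD) in somas (n = 14, exact p = 0.000977). In A830018L16Rik, end 3 held 94.0% ± 9.10 (SD) against end 1 in dendrites and 59.5% ± 28.7 (SD) in somas (n = 11, exact p = 0.00293).

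Sec14l1 end 1, with its AATAAA printed above, held 85.8% to 100% in dendrites (median 100%) and 77.4% to 100% in somas (median 91.1%), and exceeded the soma in 9 of 10 neurons and equalled it in 1 (exact p = 0.00391, adjusted p = 0.818). Its end 2, with ATTAAA, took the rest. End 1 of Ncam1, the neural cell adhesion molecule, held 99.6% ± 0.952 (SD) in dendrites and 93.2% ± 9.14 (SD) in somas (n = 13, exact p = 0.00488). With the share taken over all ends of the gene, Sec14l1 and Ncam1 had exact p = 0.129 and 0.127.

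The leading end had a lower share in dendrites in Pcmt1, Rasa1, Chka, Ube2e3 and Cdh13. Pcmt1, a repair enzyme of aged proteins, had end 3 at 0% to 100% against end 4 in dendrites (median 39.6%) and at 50.1% to 86.8% in somas (median 65.4%). Its end 3 was lower in dendrites in 11 of 14 neurons (exact p = 0.00854, adjusted p = 0.818), and it was the dominant end in 15 of 16 somas and 4 of 14 dendrites.

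Rasa1 end 1 was lower in the dendrites of all 7 usable neurons (exact p = 0.0156, the smallest 7 neurons allow, adjusted p = 0.818). Its share against end 2 was 65.2%, 1.19%, 0.885%, 93.1%, 0%, 27.8% and 0% in the dendrites of neurons 2, 4, 5, 8, 9, 11 and 14. In the somas of the same neurons it was 86.9%, 67.6%, 15.2%, 97.1%, 55.8%, 75.9% and 80.6%. The groups overlap, and the order holds within each neuron. The printed bases before end 1 of Rasa1 hold AATAAA and those before end 2 hold neither hexamer.

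Chka, a choline kinase, had end 1 at 47.9% ± 48.1 (SD) against end 8 in dendrites and at 90.02% ± 18.1 (SD) in somas, lower in dendrites in 7 of 7 neurons (exact p = 0.0156). Ube2e3, a ubiquitin-conjugating enzyme, had end 3 at 56.9% ± 43.2 (SD) against end 1 in dendrites and at 91.4% ± 7.62 (SD) in somas (n = 11, exact p = 0.0195). Cdh13, a cadherin held by a lipid anchor, had end 1 at 45.6% ± 39.6 (SD) against end 2 in dendrites and at 79.9% ± 8.97 (SD) in somas (n = 10, exact p = 0.0273). In 1 of 5 alternative settings each, the exact p of Ube2e3 was 0.156 and that of Cdh13 was 0.109. In Pcmt1, Rasa1, Chka, Ube2e3 and Cdh13 the SD was larger in dendrites than in somas. In the 5 genes above whose leading end had a higher share in dendrites, the SD was smaller in dendrites.

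**Figure D5:**
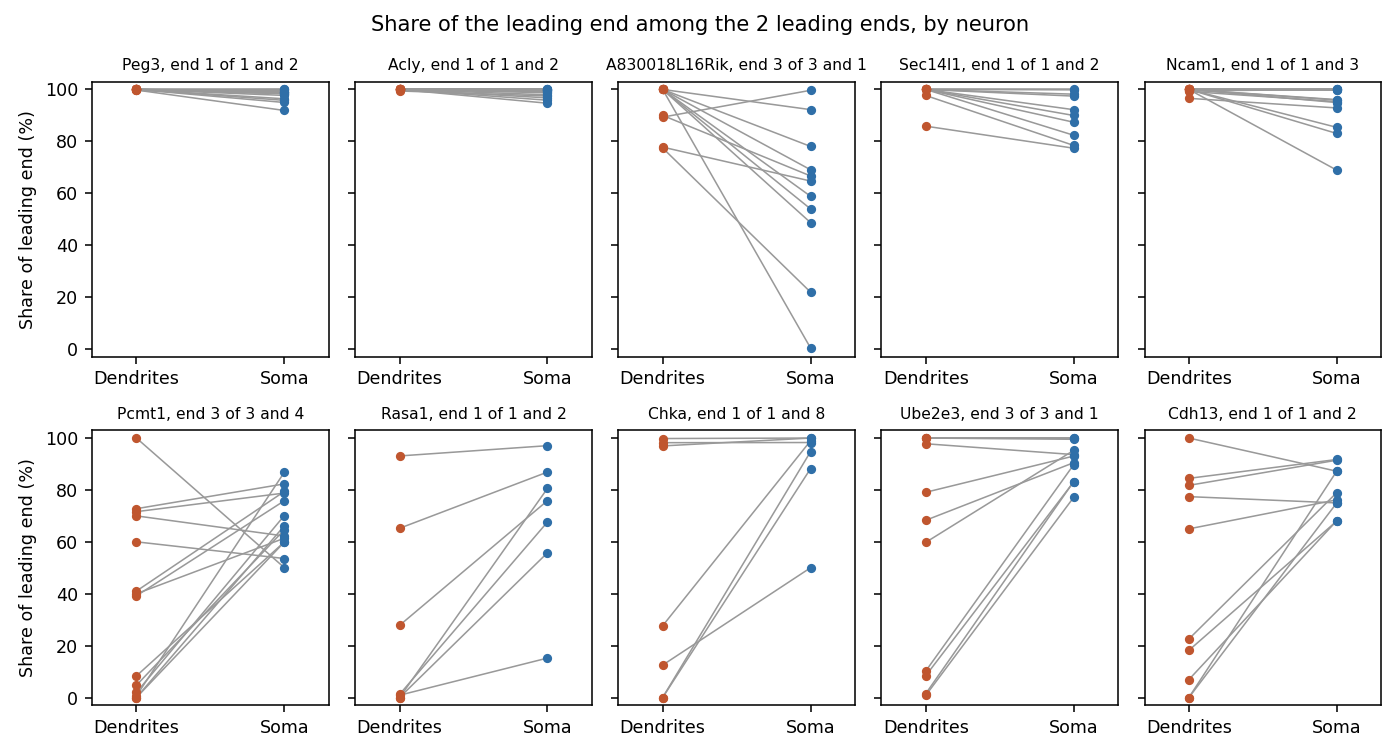
Share of the leading end among the 2 leading ends in the dendrites and soma of each neuron, with 1 line per neuron, for the many-end genes with the smallest exact p in each direction. In Rasa1 and Chka the dendrites lie below the soma in all 7 neurons.

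The compartment difference was also compared between amplification rounds. The interaction of compartment and rounds was called for 0 ends of many-end genes at an adjusted p of at most 0.05 by edgeR, with 73 at an unadjusted p under 0.05 (3.32%), against 3.26% of all ends tested. A p that misses the threshold does not show that the rounds made no difference.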

How the data were processed

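The deposited table holds raw read counts per 3′ end: per the labels and the methods, the authors amplified poly-adenylated RNA of single dendrite and soma samples, made stranded libraries, aligned reads with STAR 2.4.0 to mm10 and counted uniquely assigned reads with VERSE over the last 500 nt of each end, with ends from Ensembl, UCSC and published extensions. No molecular identifiers were used, so counts carry amplification noise beyond counting error. The 32 columns were matched to samples by title, and 0 columns had no sample. The 2 samples of a neuron were paired because they come from the same cell. The correlation of their deviations from the group means ranged from -0.0167 to 0.279 (median 0.0718), and 9 dendrite samples were closest to their own soma. The p-values measure the spread between these 16 cells, which may share cultures.

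The members and gene lists were chosen with earlier results of these data known. Tests ran over all ends: edgeR 4.0.16 in R 4.3.3 (TMM scaling, robust quasi-likelihood F test, neuron block, ends with at least 1 read in at least 16 libraries, Benjamini-Hochberg adjusted p at most 0.05), diffSpliceDGE for end usage, and an exact signed-rank test of the leading-end share (at least 10 reads on the 2 leading ends in both compartments, at least 5 neurons). DESeq2 1.42.0 was an alternative. Shares and agreement were computed with Python 3.11.15, pandas 2.3.3, NumPy 2.4.6 and SciPy 1.17.1, and figures with matplotlib 3.10.9. Named genes were the 10 with most ends, the 8 with most and 8 with fewest expected ends, the 5 most and 5 least steady, up to 5 per test and direction, and 4 per list, of which 1 gene is not reported here. End numbers were read as rising from the most 3′ end, which held for most genes whose end positions the study lists. Ends were placed through GENCODE vM21 by number only. On simulated counts, edgeR recovered 44 of 177 ends changed 16-fold with 2 false calls, the usage test 38 of 185 genes with 2, and the signed-rank test at p under 0.1 190 of 200 with 303. Alternatives chosen after seeing the data were the rescaled dendrites, leaving out neurons 8, 10 and 12, the expected ends by rounds and without neuron 5, and the reading of the leading pair by position.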

Additional observations from a re-analysis of the deposited data

How the results depend on the processing

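The number of called ends depended strongly on the processing, and the cause was not tested. Of 413 ends of many-end genes called (4 higher and 409 lower in dendrites), RLE size factors gave 714 (2 and 712), all ends with a read gave 41 (1 and 40), ends with at least 10 reads in 16 libraries gave 64 (2 and 62), and DESeq2 gave 1473 (16 and 1457). Without the replicate block, 37 were called, 34 of them lower. Neurons of 2 rounds alone gave 240 (237 lower) and those of 3 rounds 1 (0 higher and 1 lower). Rescaled dendrites gave 82 (49 higher and 33 lower). Leaving out neuron 5, 8, 10 or 12 gave 193 to 590 calls, 2 to 4 higher and 191 to 586 lower, with the lowest counts without neuron 10. For end usage, 6 genes became 71 with all ends with a read, 0 with at least 10 reads in 16 libraries, 1 with 2 rounds, 0 with 3 rounds, 1 with Simes p-values and 1 to 7 without 1 of these neurons. Without the replicate block it was 8. Of the 95 leading-end calls, 0 passed the adjusted threshold, and the other alternatives gave 65 to 141. The difference in used ends, -0.485, was -0.139 with an end counted as used from 10% of the reads of its gene, and lay between -0.572 and -0.17 under the other alternatives. Agreement within a neuron lay between 63.9% and 75.0%. Over the named genes, 148 alternative values kept their side of the threshold and 58 did not. None of the fold changes and share differences among them changed direction. The F values of end usage, which are part of both counts, have no direction. Depth limits the dendrites most, where many genes had fewer than 10 reads.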
